A study of Mus musculus with 16 samples.

Results

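The 7 genes described here, Klf2, Klf4, Klf5, Tfcp2l1, Tbx3, Esrrb and Gbx2, encode transcription factors of the naive pluripotency network that leukaemia inhibitory factor (LIF) helps to sustain in mouse embryonic stem cells (ESCs). They were chosen by name, with earlier results of these data known, and make up 7 of 22872 genes that could be tested among 30102 genes with a value. Each is measured by 1 probe set carrying a single gene symbol, so no choice among probe sets was needed. The study measured total RNA on 16 Affymetrix arrays from 8 male ESC lines of the 129SV strain, each grown for 12 days without LIF and also grown with LIF, 1 array per line and condition. EBRTcH3 is the wild-type line, and the other 7 lines are all Mbd3abc-KO cells derived from it, which make none of the isoforms a, b and c of MBD3, which belongs to the NuRD chromatin remodelling complex. Each knockout line carries a stably introduced vector. In 3 lines no MBD3 with a coiled-coil domain is supplied: the empty vector line, the coiled-coil-deleted line, with MBD3a that lacks this domain, and the doubly deleted line, with MBD3a that lacks both the methyl-CpG-binding domain (MBD) and the coiled coil. In the other 5 lines the coiled coil is retained: the MBD-deleted line, the MBD3a, MBD3b and MBD3c lines, and EBRTcH3. These are called the lacking lines and the retaining lines. No line has a repeat culture in the labels, which leave unstated whether a line is a clone or a pool. The lines of a class therefore serve as replicates, and the p-values reflect the spread among lines that also differ in construct.

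LIF binds a receptor made of LIFR and gp130, which activates JAK kinases and the transcription factor STAT3. STAT3 is known to drive Klf4, Tfcp2l1, Klf5 and Gbx2 in mouse ESCs, and LIF also sustains Tbx3 through other branches of the same receptor. Esrrb is known best as a gene released by inhibition of GSK3 and activated by NANOG, and Klf2 as one driven by OCT4, and both join the same network. These factors bind one another's regulatory regions, and several of them can hold ESCs in self-renewal without LIF when overexpressed.

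RefSeq promoter windows (GRCm38.p6, 250 bases before to 50 bases after the start, written 5′ to 3′ on the gene's strand) were at hand for 5 of the 7 genes, Klf2, Klf4, Tfcp2l1, Esrrb and Gbx2, with 6 windows because Esrrb has more than 1 start. The 3 shown belong to the genes with the largest fall upon LIF withdrawal among those 5 (Klf4, Tfcp2l1) and to the only window with a STAT site (the upstream start of Esrrb). Capitals mark the STAT site in the Esrrb window and GC boxes, the letters that KLF factors bind, in the other 2 windows.
Klf4 promoter, chr4:55532426-55532725, minus strand: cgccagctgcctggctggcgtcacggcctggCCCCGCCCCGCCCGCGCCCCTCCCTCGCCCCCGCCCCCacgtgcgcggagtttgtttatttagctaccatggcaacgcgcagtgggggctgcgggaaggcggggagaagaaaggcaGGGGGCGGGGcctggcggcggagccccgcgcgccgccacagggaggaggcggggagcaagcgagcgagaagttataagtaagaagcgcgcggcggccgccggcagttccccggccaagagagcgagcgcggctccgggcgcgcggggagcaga
Tfcp2l1 promoter, chr1:118627695-118627994, plus strand: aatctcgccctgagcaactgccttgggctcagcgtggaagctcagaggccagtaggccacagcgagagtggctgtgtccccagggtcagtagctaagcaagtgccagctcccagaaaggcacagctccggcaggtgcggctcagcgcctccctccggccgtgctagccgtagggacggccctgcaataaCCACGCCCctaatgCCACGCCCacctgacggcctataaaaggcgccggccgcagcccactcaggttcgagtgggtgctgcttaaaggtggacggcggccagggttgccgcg
Esrrb promoter, chr12:86360867-86361166, plus strand: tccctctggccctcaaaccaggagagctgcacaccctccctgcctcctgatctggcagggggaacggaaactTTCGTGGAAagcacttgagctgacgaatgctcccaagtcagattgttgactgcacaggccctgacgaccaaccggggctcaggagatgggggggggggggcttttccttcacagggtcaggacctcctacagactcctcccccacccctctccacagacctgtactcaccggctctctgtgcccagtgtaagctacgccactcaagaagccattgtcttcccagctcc
Windows were searched on both strands for 4 motifs, counting overlapping matches: the STAT site TTCNNNGAA, the GC box GGGNGNGG, the ESRRB half-site AAGGTCA and the T-box site AGGTGTGA. The STAT site was found in 1 of the 6 windows, that of the upstream Esrrb start, at position -178 from the start, and in 8.3% of all 32851 windows of the same length. A GC box was found in 6 of 6 windows, against 49.5% of all windows with at least 1. Matches numbered 9 at Klf4, 8 at the upstream Esrrb start and 4 at Klf2. Tfcp2l1 had 2, and Gbx2 and the downstream Esrrb start had 1 each. Most of those at the upstream Esrrb start overlap within 1 unbroken run of G. The ESRRB half-site (4.72% of all windows) and the T-box site (1.28%) were found in 0 of the 6. The windows of the genes hold 55.3% to 74.3% G and C. These matches describe letters within the windows alone.

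All values are RMA signals on a log2 scale as deposited, so a difference of 1 is a 2-fold difference, and levels are not set against each other between genes. Array medians lay between 4.72 and 4.85, and any pair of arrays correlated at 0.971 to 0.995. The number of arrays limits the precision. In the check of the targeted gene, Mbd3 stood at 7.45 without LIF and 7.00 with LIF in the empty vector line, against 8.45 to 9.59 on the other 14 arrays, whose lines carry an Mbd3 transgene or the intact gene. The mean log2 level of 7 general ESC markers was 11.16 to 11.30 in lacking and 10.78 to 11.34 in retaining lines without LIF. With LIF it was 11.32 to 11.40 in lacking and 11.28 to 11.51 in retaining lines. This mean joins opposite changes. At a limma adjusted p under 0.05, 2 of the 7 markers rose upon LIF withdrawal and 5 fell in the retaining lines. There 21.3% of all tested genes rose and 14.5% fell. In the lacking lines 0 of the markers rose and 0 fell, where 1.71% and 1.22% of all tested genes did. The lines of the deletion constructs (MBD-deleted, coiled-coil-deleted, doubly deleted) have titles in a separate number run from the rest, so the title run was treated as a possible batch. Because these are bulk RNA samples, fewer cells expressing a gene and less RNA per cell cannot be told apart.

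All 7 genes fell upon LIF withdrawal over the 8 lines, and each was lower without LIF in every one of the 8 lines. In the paired fit, which averages the change over the lines, 9.89% of the tested genes were called lower at an adjusted p under 0.05, and 5.49% were lower in every line. Klf4 had the largest fall, with a log2 change of -2.17 ± 0.13 (SE, n = 8 lines, limma adjusted p = 2.71e-05), the rank of 7 from the lowest among 22872 genes. Tbx3 changed by -1.69 ± 0.14 (rank 19), Tfcp2l1 by -1.68 ± 0.17 (rank 23), Klf5 by -1.20 ± 0.12 (rank 60), Esrrb by -1.18 ± 0.20 (rank 66) and Klf2 by -0.91 ± 0.17 (rank 159). Gbx2 had the smallest fall, -0.47 ± 0.09, at rank 1026. Their adjusted p-values in the same fit ran from 0.000146 for Tbx3 to 0.00452 for Klf2. The median change was -1.20 over the 7 genes and 0.02 over all tested genes.

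**Figure D1:**
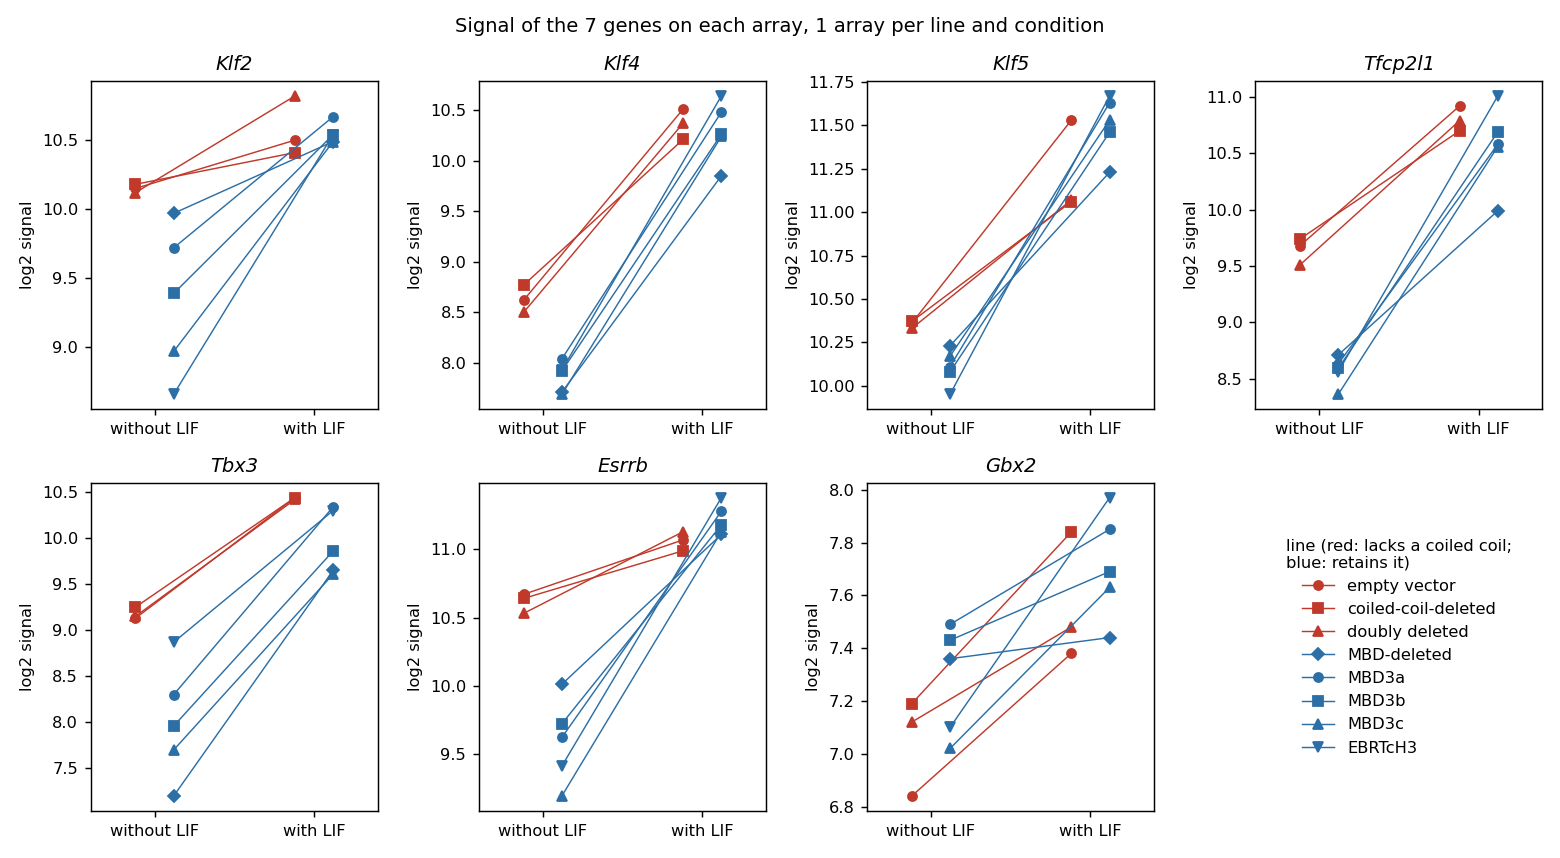
Log2 signal of each of the 7 genes on every array, without LIF and with LIF, with one point per line, coloured by whether the line lacks or retains the coiled coil. Klf4 lies at 8.50 to 8.77 without LIF in the lacking lines and at 7.69 to 8.04 without LIF in the retaining lines, below every array with LIF, while the Gbx2 groups overlap.

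Among the Krüppel-like zinc finger factors, Klf4 is a reprogramming factor and the one most directly tied to STAT3. Without LIF, its log2 signal was 8.62 in the empty vector line, 8.77 in the coiled-coil-deleted line and 8.50 in the doubly deleted line, against 10.51, 10.21 and 10.37 in these lines with LIF. Without LIF it was 7.71 in the MBD-deleted line, 8.04 in the MBD3a line, 7.92 in MBD3b, 7.69 in MBD3c and 7.93 in EBRTcH3, against 9.85, 10.48, 10.26, 10.24 and 10.64 in the same lines with LIF. The 3 lacking lines thus stood above all 5 retaining lines without LIF, and the classes overlapped with LIF. Klf4 fell in both classes, by 1.73 on the log2 scale in the lacking lines (-1.73 ± 0.13, limma adjusted p = 0.000114, 3.33-fold) and by more in the retaining lines (-2.44 ± 0.10, adjusted p = 4.96e-08, 5.41-fold). Lacking minus retaining, the difference of the response was 0.70 ± 0.16 (adjusted p = 0.0179). It lost the call without the coiled-coil-deleted line (0.56, adjusted p = 0.0977) and with the title run as a covariate (0.56, adjusted p = 0.0588).

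Klf2 shares with Klf4 and Klf5 the ability to sustain self-renewal in mouse ESCs. Without LIF it stood at 10.15 in the empty vector line, 10.18 in the coiled-coil-deleted line and 10.12 in the doubly deleted line, against 10.50, 10.41 and 10.82 with LIF. Without LIF it stood at 9.97 in the MBD-deleted line, 9.72 in the MBD3a line, 9.39 in MBD3b, 8.97 in MBD3c and 8.66 in EBRTcH3, against 10.49, 10.67, 10.54, 10.49 and 10.54 with LIF. The 5 retaining lines spread over a narrow range with LIF (SD 0.07) and over a wide one without it (SD 0.53), with EBRTcH3 the lowest and the MBD-deleted line the highest. Klf2 fell in the retaining lines (-1.20 ± 0.16, limma adjusted p = 0.000169). In the lacking lines its change was -0.43 ± 0.21 (adjusted p = 0.366, 95% interval -0.89 to 0.03). The difference of the response was 0.78 ± 0.26 (adjusted p = 0.0828, 95% interval 0.20 to 1.36), and it was called with array weights (0.95, adjusted p = 0.00911) and without the MBD-deleted line (0.95, adjusted p = 0.0142).

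Klf5 is also used in the trophectoderm, the outer layer of the blastocyst. Its log2 signal was 10.33 to 10.37 in the 3 lacking lines without LIF, against 11.06 to 11.53 in these lines with LIF. It was 9.95 to 10.23 in the 5 retaining lines without LIF, against 11.23 to 11.67 in these lines with LIF. Without LIF the lacking lines stood above the retaining lines by a small margin, and with LIF the classes overlapped. Klf5 fell in the lacking lines (-0.87 ± 0.14, limma adjusted p = 0.00911) and in the retaining lines (-1.40 ± 0.11, adjusted p = 3.72e-06). Without the empty vector line the fall of the lacking lines lost the call (-0.72, adjusted p = 0.0910). The difference of the response was 0.53 ± 0.18 (adjusted p = 0.0795, 95% interval 0.14 to 0.92). It was called under 5 alternatives: array weights (0.67, adjusted p = 0.00677), quantile normalization (0.61, adjusted p = 0.0441), no block by line (0.53, adjusted p = 0.0438), and the fits without the MBD-deleted line (0.63, adjusted p = 0.0210) or without the empty vector line (0.68, adjusted p = 0.0456).

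Tfcp2l1, a CP2-family factor that acts downstream of STAT3, had log2 signals without LIF of 9.68 in the empty vector line, 9.74 in the coiled-coil-deleted line and 9.51 in the doubly deleted line, against 10.92, 10.70 and 10.79 with LIF. Without LIF it stood at 8.71 in the MBD-deleted line, 8.63 in the MBD3a line, 8.59 in MBD3b, 8.36 in MBD3c and 8.56 in EBRTcH3, against 9.99, 10.58, 10.69, 10.56 and 11.01 with LIF. Without LIF the classes were separated by more than the spread within either one (SD 0.12 over the 3 lacking lines, 0.13 over the 5 retaining lines). Tfcp2l1 fell in the lacking lines (-1.16 ± 0.18, limma adjusted p = 0.00854, 2.24-fold) and in the retaining lines (-2.0 ± 0.14, adjusted p = 1.72e-06, 3.99-fold). The fall in the lacking lines lost the call without the empty vector line (-1.12, adjusted p = 0.0785) and without the doubly deleted line (-1.10, adjusted p = 0.0589). Between the classes the response differed by 0.84 ± 0.23 (adjusted p = 0.0368). It rested on the full set of lines: leaving out any single line but the MBD-deleted one ended the call (0.72 to 0.90, adjusted p = 0.0636 to 0.150), as did the title run as a covariate (0.58, adjusted p = 0.116).

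Tbx3, a T-box factor with roles in self-renewal and in extraembryonic endoderm, stood without LIF at 9.13 in the empty vector line, 9.25 in the coiled-coil-deleted line and 9.15 in the doubly deleted line, against 10.44, 10.44 and 10.42 with LIF. Without LIF it stood at 7.20 in the MBD-deleted line, 8.30 in the MBD3a line, 7.96 in MBD3b, 7.70 in MBD3c and 8.87 in EBRTcH3, against 9.65, 10.34, 9.86, 9.61 and 10.30 with LIF. It is the one gene of the 7 whose lacking lines stood above all retaining lines in both conditions, with EBRTcH3 and MBD3a the nearest to them. Tbx3 fell in the lacking lines (-1.26 ± 0.15, limma adjusted p = 0.00215, 2.39-fold) and in the retaining lines (-1.95 ± 0.12, adjusted p = 6.77e-07, 3.85-fold). The difference of the response was 0.69 ± 0.19 (adjusted p = 0.0418). That call was lost without any one of MBD3a, MBD3b, MBD3c, the empty vector, the coiled-coil-deleted and the doubly deleted line (0.66 to 0.72, adjusted p = 0.0762 to 0.143), without the filter on low signals (adjusted p = 0.0560) and with no block by line (adjusted p = 0.261).

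Esrrb encodes an orphan nuclear receptor that binds alongside NANOG and OCT4. Its log2 signal without LIF was 10.67 in the empty vector line, 10.64 in the coiled-coil-deleted line and 10.53 in the doubly deleted line, against 11.07, 10.99 and 11.13 with LIF. Without LIF it was 10.01 in the MBD-deleted line, 9.62 in the MBD3a line, 9.72 in MBD3b, 9.19 in MBD3c and 9.41 in EBRTcH3, against 11.11, 11.28, 11.18, 11.13 and 11.38 with LIF. The response was thus small in each lacking line, between -0.60 and -0.35, and larger in each retaining line, between -1.97 and -1.10. Esrrb fell in the retaining lines (-1.63 ± 0.12, limma adjusted p = 2.49e-06, 3.09-fold). Its change in the lacking lines was -0.45 ± 0.15 (adjusted p = 0.175, 95% interval -0.79 to -0.11). Its difference of the response was the largest of the 7, 1.18 ± 0.20 (adjusted p = 0.0035, rank 145 from the highest among all tested genes). Leaving out each line in turn kept this call.

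Gbx2, a homeobox gene, had log2 signals of 6.84 to 7.19 in the 3 lacking lines without LIF, against 7.38 to 7.84 in these lines with LIF. In the 5 retaining lines it had 7.02 to 7.49 without LIF, against 7.44 to 7.97 with LIF. These groups all overlapped with their neighbours, in the order lacking without LIF, retaining without LIF, lacking with LIF, retaining with LIF. Gbx2 fell in the retaining lines (-0.44 ± 0.11, limma adjusted p = 0.0090, 1.35-fold). In the lacking lines its change was -0.52 ± 0.14 (adjusted p = 0.0853), and it was called with array weights (-0.59, adjusted p = 0.0120), with the title run as a covariate (-0.59, adjusted p = 0.0453) and without the MBD-deleted line (-0.52, adjusted p = 0.0454), a line of the other class that enters this value through the shared spread and the adjustment alone. Between the classes the response differed by -0.08 ± 0.18 (adjusted p = 0.829, 95% interval -0.47 to 0.31).

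Counted by class, 4 of the 7 genes fell in the lacking lines (Klf4, Tbx3, Tfcp2l1, Klf5), where 1.22% of all tested genes were called lower, and 7 of 7 fell in the retaining lines, where 14.5% were. The median change was -0.87 over the 7 genes in the lacking lines, against -1.63 in the retaining lines, and over all tested genes it was 0.00 in the lacking lines and 0.04 in the retaining lines. A call in one class and not in the other does not show a difference between them. The test of the difference called 4 genes as falling less in the lacking lines (Esrrb, Tfcp2l1, Klf4, Tbx3), where 4.17% of tested genes were called in that direction. The median difference over the 7 genes was 0.70, and it was -0.05 over all tested genes. For Klf4, Tbx3 and Esrrb the response of every lacking line lay above that of every retaining line, as it did for 6.82% of tested genes. For Tfcp2l1 the classes met, with -1.28 in both the doubly deleted line and the MBD-deleted line.

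**Figure D2:**
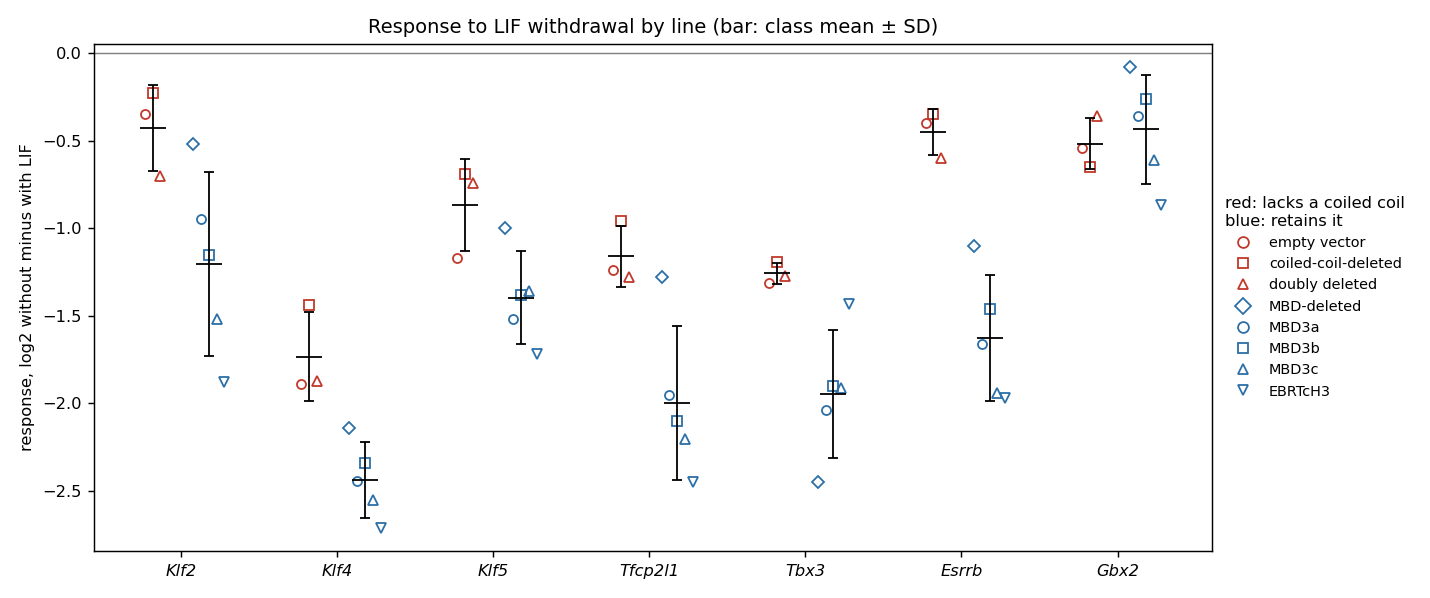
Response to LIF withdrawal (log2 signal without LIF minus with LIF) of each of the 7 genes in each of the 8 lines, with lacking lines before retaining lines. Every point lies below 0, Klf4 reaches from -1.89 to -1.44 in lacking lines and from -2.71 to -2.14 in retaining lines, and Esrrb from -0.60 to -0.35 in lacking lines and from -1.97 to -1.10 in retaining lines.

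Without LIF, 5 of the 7 genes stood higher in the lacking lines than in the retaining lines in a fit of the levels, where 7.38% of tested genes were called higher. For both conditions this fit takes 1 spread per gene from all 16 arrays. Its SEs and intervals thus do not follow the SD of 1 condition. It leaves out the line, so both arrays of a line count as independent. Its p-values can thus be too small for a gene whose lines keep their order in both conditions. For Tbx3, the MBD-deleted and MBD3c lines were lowest and the MBD3a and EBRTcH3 lines highest of the retaining lines in both conditions. Tbx3 averaged 9.18 ± 0.06 in the 3 lacking lines and 8.01 ± 0.63 in the 5 retaining lines (SD), a difference of 1.17 ± 0.26 (SE, limma adjusted p = 0.00395, 2.25-fold). Tfcp2l1 averaged 9.64 ± 0.12 in lacking and 8.57 ± 0.13 in retaining lines, a difference of 1.07 ± 0.16 (adjusted p = 9.72e-05). Esrrb averaged 10.61 ± 0.07 in lacking and 9.59 ± 0.31 in retaining lines, a difference of 1.02 ± 0.14 (adjusted p = 3.66e-05). Klf2, with 10.15 ± 0.03 in lacking and 9.34 ± 0.53 in retaining lines, and Klf4, with 8.63 ± 0.14 in lacking and 7.86 ± 0.15 in retaining lines, differed by 0.81 ± 0.21 (adjusted p = 0.0103) and by 0.77 ± 0.14 (adjusted p = 0.000835). Klf5 differed by 0.25 ± 0.12 (adjusted p = 0.173), which was called with array weights (0.25, adjusted p = 0.0296), and Gbx2 by -0.23 ± 0.14 (adjusted p = 0.319, 95% interval -0.53 to 0.07). For 6 of the 7 genes, Gbx2 being the exception, all lacking lines stood above all retaining lines, as did 11.9% of all tested genes. The median difference was 0.81 over the 7 genes and 0.01 over all tested genes.

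With LIF, 0 of the 7 genes were called different between the lacking and the retaining lines in the limma fit, in which 19.6% of tested genes were called in either direction, and 1 of the 7 had an unadjusted p under 0.05. That gene, Klf5, averaged 11.22 ± 0.27 in lacking and 11.50 ± 0.17 in retaining lines (difference -0.28, 95% interval -0.53 to -0.04, adjusted p = 0.101), and was called lower in lacking lines under 4 alternatives: array weights (-0.39, adjusted p = 0.00732), quantile normalization (-0.36, adjusted p = 0.0341), and the fits without the empty vector line (-0.44, adjusted p = 0.0143) or without the MBD-deleted line (-0.35, adjusted p = 0.0286). The 95% intervals of the difference were -0.08 to 1.04 for Tbx3, -0.10 to 0.57 for Tfcp2l1, -0.23 to 0.37 for Klf4, -0.41 to 0.47 for Klf2, -0.45 to 0.15 for Gbx2 and -0.44 to 0.13 for Esrrb. The interval of Tbx3 thus reaches a difference of about 2-fold, and those of Esrrb, Klf4 and Gbx2 are narrower. All lacking lines stood above all retaining lines with LIF for Tbx3 alone of the 7 genes, as for 11.8% of tested genes.

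**Figure D3:**
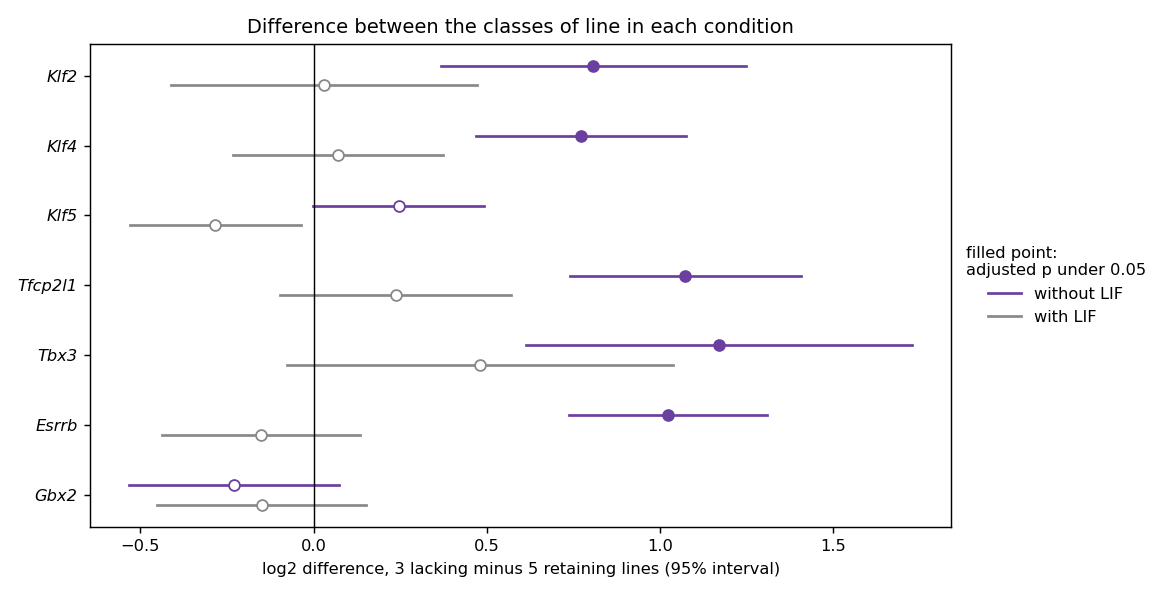
Difference in log2 level between lacking and retaining lines (lacking minus retaining) for each of the 7 genes, without LIF and with LIF, with 95% intervals from the limma fit of 16 arrays. Without LIF the differences of Tbx3, Tfcp2l1, Esrrb, Klf2 and Klf4 run from 0.77 to 1.17, whereas with LIF the intervals of 6 of the 7 genes include 0.

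The possible batch by title run was looked at within each run, where the fit of the first run sets the empty vector line against 4 retaining lines (MBD3a, MBD3b, MBD3c, EBRTcH3) and that of the second sets 2 lacking lines against the MBD-deleted line. Over the lines of the first run all 7 genes fell upon LIF withdrawal, and over the 3 lines of the second 1 of the 7 did, Klf4, while 7 of 7 had an unadjusted p under 0.05 there. The difference of the response was 1.36 for Esrrb in the first run (adjusted p = 0.0327) and 0.62 in the second (adjusted p = 0.415). For Klf4 it was 0.62 in the first run and 0.48 in the second, for Tbx3 0.51 and 1.22, for Tfcp2l1 0.94 and 0.16, for Klf2 1.02 and 0.06, for Klf5 0.32 and 0.28, and for Gbx2 -0.02 and -0.42, with adjusted p-values of 0.0725 or more for these 6 genes. The direction of the 4 called genes was the same in both runs, and the values of Tfcp2l1 and Klf2 were near 0 in the second. The level difference without LIF kept its call in both runs for Tfcp2l1 (1.14 in the first, 0.92 in the second), as it did for Klf4. It lost it for Klf2 in both (0.96, adjusted p = 0.0760, and 0.18, adjusted p = 0.715), for Tbx3 in the first (0.92, adjusted p = 0.183) and for Esrrb in the second (0.57, adjusted p = 0.107).

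Line by line, the comparison is of 1 array without LIF against 1 array with LIF and has no replicate, so it is described by size. Of the 7 genes, the number at least 2-fold lower without LIF was 4 in the empty vector line (0.708% of tested genes), 2 in the coiled-coil-deleted line (0.328%) and 3 in the doubly deleted line (0.804%). It was 5 in the MBD-deleted line (1.53%), 5 in the MBD3a line (2.00%), 6 in MBD3b (2.22%), 6 in MBD3c (2.25%) and 6 in EBRTcH3 (2.54%). Klf4 and Tbx3 passed this size in all 8 lines, whereas Gbx2 passed it in none of the 8. The median response of the 7 genes was -1.17 in the empty vector line, -0.69 in the coiled-coil-deleted line and -0.74 in the doubly deleted line, against -1.10 in the MBD-deleted line, -1.66 in the MBD3a line, -1.46 in that of MBD3b, -1.91 in that of MBD3c and -1.88 in EBRTcH3. By this median the MBD-deleted line lay within the range of the 3 lacking lines, and the other 4 retaining lines lay outside it. The SD of the response over all tested genes was likewise lower in the lacking lines, 0.28 to 0.36, than in the retaining lines, 0.50 to 0.57.

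The retaining lines were not alike. EBRTcH3 had the largest response of the 5 for 6 of the 7 genes and the MBD-deleted line the smallest for 6, and Tbx3 had the opposite order, with -2.45 in the MBD-deleted line and -1.43 in EBRTcH3. Klf4 had the largest response of the 7 genes in every line but the MBD-deleted one, where Tbx3 did. In the MBD-deleted line without LIF, Klf2, Klf5, Tfcp2l1 and Esrrb were the highest of the 5 retaining lines, while Tbx3 was the lowest of all 8. Against the MBD3a line, whose construct differs from it by the MBD alone, the MBD-deleted line without LIF was lower in Tbx3 by 1.10 (a difference of -1.10) and differed by 0.39 in Esrrb, 0.25 in Klf2 and -0.33 in Klf4, beside an SD of 0.32 over all tested genes. With LIF the same pair differed by -0.69 in Tbx3, -0.63 in Klf4, -0.59 in Tfcp2l1, -0.41 in Gbx2 and -0.40 in Klf5, beside an SD of 0.31. With LIF the MBD-deleted line was the lowest of the 5 retaining lines for 5 of the 7 genes, so part of its smaller response lay in the level with LIF. Title runs and constructs cannot be told apart in this pair of lines.

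**Figure D4:**
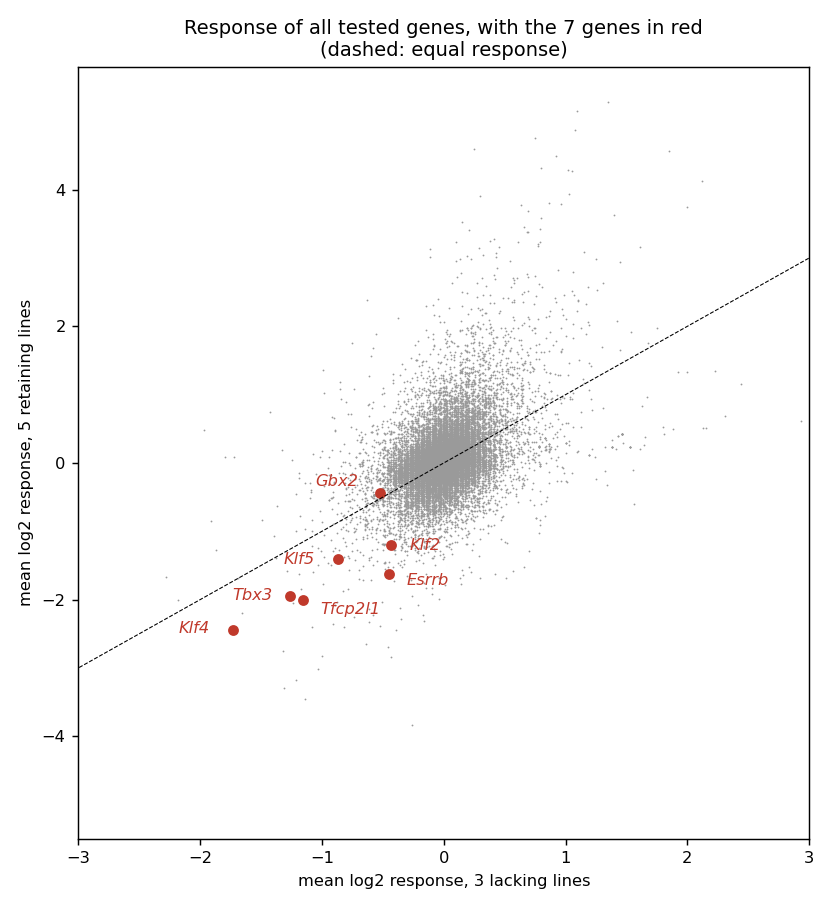
Response to LIF withdrawal (log2 signal without LIF minus with LIF) of every tested gene in lacking lines and in retaining lines, with the 7 genes named. Klf4 lies at -1.73 in lacking and -2.44 in retaining lines, and Esrrb at -0.45 in lacking and -1.63 in retaining lines.

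The upstream pathway was measured by 21 tested genes of LIF receptor and STAT3 signalling. In the lacking lines 1 of them rose and 3 fell, where 1.71% of tested genes rose and 1.22% fell. In the retaining lines 6 rose and 8 fell, where 21.3% of tested genes rose and 14.5% fell. The median change of the 21 genes was -0.09 in lacking and -0.04 in retaining lines. Socs3, the feedback inhibitor that STAT3 induces, fell in the lacking lines (-1.87 ± 0.13) and in the retaining lines (-1.27 ± 0.10), with a difference of -0.60 (limma adjusted p = 0.0424), so it fell further in the lacking lines. That is the opposite order to Klf4, Tfcp2l1, Tbx3 and Esrrb, in a comparison where 7.90% of tested genes were called in the direction of Socs3. Lifr, which encodes the ligand-binding receptor chain, changed by -0.44 in the lacking lines (adjusted p = 0.440) and fell by 1.58 in the retaining lines (-1.58 ± 0.19), with a difference of 1.14 (adjusted p = 0.0340). Bcl3, a STAT3 target that encodes an IκB-family protein, had -1.49 in lacking and -0.83 in retaining lines (difference -0.66, adjusted p = 0.105). Ier3, an early response gene, had -0.09 in lacking and 1.89 in retaining lines (difference -1.97, adjusted p = 0.00185). The level of Ier3 was higher in lacking lines with LIF (1.12, adjusted p = 0.00114) and lower without LIF (-0.86, adjusted p = 0.00722). Stat3 itself, named after its values were seen, fell in the lacking lines (-1.08 ± 0.12, adjusted p = 0.000958) and in the retaining lines (-1.0 ± 0.09, adjusted p = 1.03e-05), with a difference of -0.08 ± 0.15 (adjusted p = 0.795).

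Other naive and general pluripotency factors were represented by 24 tested genes. Of these, 0 rose and 2 fell in the lacking lines, where 1.71% of all tested genes rose and 1.22% fell. In the retaining lines 3 rose and 16 fell, where 21.3% of all tested genes rose and 14.5% fell. The median change of the 24 genes was -0.17 in lacking and -0.56 in retaining lines. The difference was called higher for 8 and lower for 2, against 4.17% and 7.90% of all tested genes. Nr0b1, a nuclear receptor gene of the naive network, changed by -0.16 in lacking and -2.32 in retaining lines, with a difference of 2.16 (limma adjusted p = 0.000785), beside 1.18 for Esrrb. In level, lacking minus retaining, Nr0b1 differed by -1.37 with LIF (limma adjusted p = 0.000108) and by 0.78 without LIF (adjusted p = 0.00835). Part of its smaller fall thus lay in a lower level with LIF. For Esrrb the level difference with LIF was -0.15 (adjusted p = 0.473). With LIF, 2 of the 24 genes were called higher in lacking lines and 5 lower, where 19.6% of all tested genes were called in either direction. Fbxo15, an ESC marker long used as a reporter, changed by -0.66 in lacking and -1.71 in retaining lines (difference 1.05, adjusted p = 0.00781). Tcl1, a coactivator of AKT, changed by -0.83 in lacking and -1.88 in retaining lines (difference 1.05, adjusted p = 0.0488). Tet2, a 5-methylcytosine dioxygenase, changed by -1.24 in lacking and -2.05 in retaining lines (difference 0.81, adjusted p = 0.0574).

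The families of the 7 genes did not move as a block. Of 14 other tested KLF genes, 0 rose and 2 fell in the lacking lines, where 1.71% of all tested genes rose and 1.22% fell. In the retaining lines 3 rose and 7 fell, where 21.3% of all tested genes rose and 14.5% fell. Klf10 and Klf11, which encode repressors tied to TGF-beta signalling, had close values in both classes, with changes of -0.84 in lacking and -0.84 in retaining lines for Klf10 and -0.64 in lacking and -0.60 in retaining lines for Klf11. Klf12 changed by -0.73 in lacking and -1.42 in retaining lines, and Klf7 by 0.41 in lacking and 0.85 in retaining lines. Of 19 tested relatives of Tfcp2l1, Tbx3, Esrrb and Gbx2, 2 rose and 0 fell in the lacking lines. In the retaining lines 4 rose and 3 fell, close to the 21.3% and 14.5% of all tested genes. Among T-box genes, Eomes, a regulator of mesendoderm and trophoblast, changed by 0.40 in lacking and 1.58 in retaining lines (difference -1.18, limma adjusted p = 0.0180). Its level was higher in lacking lines both with LIF (1.89, adjusted p = 7.95e-06) and without LIF (0.72, adjusted p = 0.0196). Tbx20 changed by 0.50 in lacking and 1.87 in retaining lines (difference -1.36, adjusted p = 0.0108). Its level was lower in lacking lines both with LIF (-0.66, adjusted p = 0.0483) and without LIF (-2.02, adjusted p = 6.56e-06). Tbx15 changed by 0.64 in lacking and 0.96 in retaining lines. Grhl2, a grainyhead-family factor of epithelia, changed by 0.77 in lacking and 1.10 in retaining lines. These genes had changes of opposite sign to Tbx3, and Mga, a T-box gene named after its values were seen, did not: it changed by -0.11 in lacking lines (adjusted p = 0.847) and fell in retaining lines (-0.86 ± 0.13, adjusted p = 0.00044), with a difference of 0.75 (adjusted p = 0.0467).

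Genes of the formative and primed epiblast, the stages that follow naive pluripotency, were represented by 17 tested genes. Of these, 4 rose and 1 fell in the lacking lines, where 1.71% of all tested genes rose and 1.22% fell, and 9 rose and 2 fell in the retaining lines, where 21.3% rose and 14.5% fell. The median change was 0.29 in lacking and 0.34 in retaining lines, against 0.00 in lacking and 0.04 in retaining lines over all tested genes. The difference was called lower, a smaller rise or larger fall in the lacking lines, for 6 of the 17 and for 7.90% of all tested genes. Fgf5, the standard marker of that stage, changed by 1.45 in lacking and 2.94 in retaining lines, with a difference of -1.49 (limma adjusted p = 0.00553). Cldn6, a tight junction gene, changed by 0.57 in lacking and 2.70 in retaining lines. Lef1, a WNT effector, changed by 1.31 in lacking and 2.63 in retaining lines, and Fgf15 by 1.10 in lacking and 2.37 in retaining lines. With LIF, 7 of the 17 were called higher in level in lacking lines and 1 lower, where 19.6% of tested genes were called in either direction. The level difference with LIF was 1.59 for Fgf15, 1.02 for Cldn6, 0.66 for Lef1 and 0.47 for Fgf5 (adjusted p = 0.108). Without LIF it was 0.33 for Fgf15 (adjusted p = 0.511), -1.11 for Cldn6, -0.66 for Lef1 and -1.02 for Fgf5. Part of the smaller rise of Fgf15, Cldn6 and Lef1 thus lay in the level with LIF.

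Markers of other cell types were set beside these genes, and not every list moved in both classes. Klf5, Tfcp2l1 and Esrrb are also used in trophoblast. Of 11 measured trophectoderm and trophoblast markers 2 rose and 0 fell in the lacking lines, where 1.71% of tested genes rose and 1.22% fell. In the retaining lines 9 rose and 1 fell, where 21.3% of tested genes rose and 14.5% fell. The mean log2 level of the 11 markers was 7.30 to 7.54 in lacking and 7.58 to 8.92 in retaining lines without LIF. With LIF it was 6.56 to 6.98 in lacking and 6.12 to 6.52 in retaining lines. Mesoderm markers (6) had mean levels of 6.46 to 6.64 in lacking and 6.24 to 7.82 in retaining lines without LIF, against 6.20 to 6.29 in lacking and 5.48 to 5.67 in retaining lines with LIF. Endoderm markers (8 tested, with Afp under the signal filter) had 6.16 to 6.23 in lacking and 6.47 to 6.90 in retaining lines without LIF, against 6.00 to 6.21 in lacking and 5.95 to 6.15 in retaining lines with LIF. Neural markers (6) lay at 6.74 to 6.80 in lacking and 7.04 to 7.54 in retaining lines without LIF, against 6.74 to 6.90 in lacking and 7.07 to 7.25 in retaining lines with LIF. Fibroblast markers (6 tested, with Lum and Postn under the filter) lay at 6.21 to 6.35 in lacking and 6.25 to 6.57 in retaining lines without LIF, against 6.25 to 6.45 in lacking and 5.85 to 6.06 in retaining lines with LIF. For all 5 of these means the highest array was thus a retaining line without LIF, the group where 6 of the 7 genes were lowest. Without LIF the mesoderm and fibroblast ranges of the classes overlapped, and the lowest retaining value for mesoderm (6.24) lay below every lacking line. The neural ranges of the retaining lines overlapped between the conditions. The part of these markers in these results was not tested. In the lacking lines 1 endoderm marker rose, and 0 mesoderm, neural or fibroblast markers were called in either direction. In the retaining lines 4 mesoderm, 4 endoderm, 2 neural and 3 fibroblast markers rose, and 0, 2, 3 and 0 fell. The neural mean thus joins opposite changes. Eomes and Hand1 count as markers of both trophoblast and mesoderm.

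Across the 16 arrays, which share the LIF contrast and the line pairs, the log2 values of the 6 genes other than Gbx2 correlated with each other at 0.732 to 0.976, and those of Gbx2 with the rest at 0.536 to 0.729. The 3 tested genes most like each by Pearson's r over the 16 arrays are given as a description. For Klf4 they were Tfcp2l1 (0.976), Slc12a7 (0.975) and Pdpk1 (0.974), and for Tfcp2l1 they were Eed (0.985), Pdpk1 (0.985) and Klf4 (0.976). For Klf2 they were Zfp42 (0.969), Sox2 (0.957) and Kat2b (0.946), and for Klf5 they were Tet2 (0.981), Hadha (0.978) and Arid5b (0.972). Tbx3 was most like Slc12a7 (0.952), Mxd1 (0.948) and Osbpl2 (0.937), and Esrrb was most like Lrrc34 (0.991), Cnnm2 (0.982) and C2cd5 (0.981). Gbx2 had lower values with its nearest genes, Urah (0.865), Snx16 (0.863) and Mertk (0.856). Klf4 and Tfcp2l1 were the one pair of the 7 to appear in each other's list.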

How the data were processed

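Total RNA of 8 mouse ESC lines was labelled with a whole-transcript kit and hybridised to 16 Affymetrix arrays, per the labels. The deposited values are log2 signals made by RMA with affy, per the submitters' processing notes; tool versions and genome build: not given in the sources used here. Of 65770 probe sets, 27 had no value and 30439 had 1 gene symbol (2146 several, 33185 none), and the probe set of highest mean represented each gene. Symbols were updated by Entrez identifier (22653 matched, 827 changed). Genes above an array's 40th percentile (4.24 to 4.38) on at least 3 arrays were tested.

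The fits used limma (version 3.58.1, under R 4.3.3), with line as a block for responses and with 4 groups of class and condition for levels. The response fits were tested on simulated data, and the level fits were not. P-values were two-sided and Benjamini-Hochberg adjusted over all tested genes, with calls at an adjusted p under 0.05. The labels pair the arrays of a line, which share the cells; deviations of paired arrays from their group means correlated at -0.05 to 0.28. The genes and lists were chosen with earlier results of these data known. The rule for named genes takes the 7 genes, Mbd3, the 3 genes most like each and up to 4 called genes per list with the largest change over the 8 lines, and Stat3 and Mga were added. The alternatives were the filter, another normalization, array weights, probe set choice, the block, title run and leaving out each line. Protein sequences were not used here.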

Additional observations from a re-analysis of the deposited data

Results flagged for a closer look

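Klf2 with LIF in the MBD3a line, at a log2 signal of 10.67, stood apart from the other 4 retaining lines, which lay at 10.49 to 10.54, by Dixon's criterion for 5 values. Of 21 groups of 5 values tested this way it was the 1 past the critical value of 0.71, and chance gives about 1 in 20. Leaving out the MBD3a line kept the Klf2 calls of the report.

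The response to LIF withdrawal differed between lacking and retaining lines by the interaction test of limma for 4 of the 7 genes, where 4.17% of tested genes were called in that direction. The difference, lacking minus retaining, was 1.18 for Esrrb, 0.84 for Tfcp2l1, 0.70 for Klf4 and 0.69 for Tbx3, and in each of these genes the smaller fall was that of the lacking lines. The number called was 2 with the title run as a covariate and 1 to 6 when each line was left out, and the calls of Tfcp2l1, Klf4 and Tbx3 were each lost when at least 1 of the lines was left out in turn, whereas that of Esrrb was kept.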

How the results depend on the processing

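Of the values of the 7 genes recomputed under the alternatives, 717 kept their direction and their side of the threshold, 52 lost the call, 16 gained it and 13 changed sign. With 1 probe set per gene, the filter, the probe set choice and the block could alter only the spread and the adjusted p. The title run as a covariate could not alter the change over all lines. The 717 thus include values whose direction was fixed in advance. Within the second title run, which holds 3 lines, the number called lower was 1 over all lines, 0 in the retaining line and 0 in the lacking lines, against 7, 7 and 4 with every line, and at an unadjusted p under 0.05 in limma it was 7, 5 and 7. Within the first run it was 1 in the lacking line, and the lone line of a class is assumed to vary like the others. Without the empty vector line 2 were called lower in the lacking lines, and leaving out each line gave 2 to 5. The number with a smaller fall in the lacking lines, 4, was 2 with the title run as a covariate, 1 within the first run, 0 within the second (2 at an unadjusted p under 0.05) and 1 to 6 when each line was left out. The 1 came without the coiled-coil-deleted line, and 2 came without MBD3a, MBD3b, MBD3c or the doubly deleted line. Without LIF, 5 were called higher in lacking lines, against 3 within either run. With LIF, 0 were called higher, and 1 was (Tbx3, 0.78, limma adjusted p = 0.0379) within the second run. The cause of these changes, including the smaller number of lines, was not tested.

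The changes of sign concerned values that were not called. The response difference of Gbx2 was 0.02 with median centring and -0.19 to 0.01 when each line was left out. With LIF, the class difference of Klf2 was -0.01 with quantile normalization, -0.05 with median centring, -0.04 with array weights, -0.07 with the title run as a covariate, -0.06 within the first run and -0.09 to 0.11 when each line was left out. That of Klf4 was -0.01 with median centring, -0.04 with array weights and -0.04 to 0.16 when each line was left out, and that of Gbx2 was 0.22 within the second run.

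No replicate block in the fit of the difference gave Klf5 the call (0.53, adjusted p = 0.0438) and took it from Tbx3 (0.69, adjusted p = 0.261), and it changed no other call of the 7 genes. Counts over all tested genes moved by more than 1.5 times as follows. LIF withdrawal over all lines called 5715 genes, and 3761 without MBD3a, 3645 without MBD3c and 18 within the second run. In the retaining lines it called 8181, and 0 within the second run (4284 at an unadjusted p under 0.05). In the lacking lines it called 670, and 1612 with array weights, 1145 with the title run as a covariate, 114 without the empty vector line, 266 without the coiled-coil-deleted line, 280 without the doubly deleted line, 1039 without the MBD-deleted line, 84 within the first run and 0 within the second (2472 unadjusted). The response difference called 2759, and 5414 with array weights, 1353 without the coiled-coil-deleted line, 1369 without the doubly deleted line, 732 within the first run and 0 within the second (2730 unadjusted). The level difference without LIF called 4328, and 2412 within the first run and 933 within the second. With LIF it called 4473, and 2655 without the coiled-coil-deleted line, 2710 without the doubly deleted line, 1148 within the first run and 1058 within the second.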
